A study of Mus musculus with 48 samples.

Results

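The 32 genes described here form a module of nuclear factor kappa B (NF-kB) genes: 5 subunits, 6 members of the inhibitor of kappa B (IkB) family, 3 induced brakes or related proteins, 6 adaptors, kinases and survival genes, 4 cytokines, 5 chemokines, and 3 genes for an enzyme of prostaglandin synthesis, an adhesion molecule and a mitochondrial superoxide dismutase. They were chosen by name, as known parts and targets of the pathway, with earlier results of these data known. All 32 were found among the 55487 genes of the deposited tables. The members are followed gene by gene across 16 groups of 3 bulk RNA libraries, 48 in all. Wild type mouse lymph nodes were digested and 4 myeloid cell types were sorted from them: medullary sinus macrophages (MSM), subcapsular sinus macrophages (SSM), migratory dendritic cells (mDC) and resident dendritic cells (rDC). The source of each sort was a node labelled lymph node (LN) or tumor-draining lymph node (TDLN), after cisplatin (CIS), a platinum drug that crosslinks DNA, or after PBS, its vehicle control. The study's design text speaks of mice with tumors; strain, age, sex, dose and tumor line are not given in the sources used here, nor whether the LN animals carried tumors. Whether the 3 libraries within a group stem from different mice is not stated, so p-values measure the spread between these libraries, which may be technical.

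NF-kB is a family of dimeric transcription factors that resting cells hold in the cytoplasm, bound to IkB proteins. Receptors for danger signals, interleukin 1 and tumor necrosis factor activate the IkB kinase complex; the classical IkB proteins are then destroyed and dimers of RelA or c-Rel enter the nucleus. The genes for IkB alpha (Nfkbia) and for the ubiquitin-editing enzyme A20 (Tnfaip3) are themselves targets, which closes negative feedback loops. In a slower, noncanonical arm, receptors such as CD40 and RANK lead to processing of the Nfkb2 product and to dimers with RelB, the subunit best known for its part in dendritic cell maturation.

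The DNA sites to which NF-kB dimers bind are short and nearly palindromic. RefSeq promoter windows (build GRCm38.p6, 250 bases before to 50 bases after a gene's start) matched 26 of the 32 members; Nfkb1, Relb, Nfkbiz, Map3k8, Il23a and Ccl4 had none. The kB consensus was found on either strand in the windows of 13 of those 26 members, against 5.14% of 27025 genes with a window. A looser motif, GGG and CC with 5 bases of any kind between them, was in 21 of the 26 and in 53.5% of all genes with a window. These matches are a description of the letters: the list was chosen for being NF-kB targets, and no binding was measured. The 150 bases before the start are printed in lower case on the gene's strand, with matches to the kB consensus, overlapping ones joined, in capitals. Nfkb2 had several windows with different matches. The one printed belongs to a downstream start and lies inside the annotated gene, which begins at base 46304320. The feedback inhibitors and the self-regulated subunits come first, because their levels follow pathway activity in many cells.
Nfkbia (chr12:55492648-55492797, minus strand): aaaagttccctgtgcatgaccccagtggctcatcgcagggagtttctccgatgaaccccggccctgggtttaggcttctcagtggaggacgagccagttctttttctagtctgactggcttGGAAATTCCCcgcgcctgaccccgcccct
Tnfaip3 (chr10:19015411-19015560, minus strand): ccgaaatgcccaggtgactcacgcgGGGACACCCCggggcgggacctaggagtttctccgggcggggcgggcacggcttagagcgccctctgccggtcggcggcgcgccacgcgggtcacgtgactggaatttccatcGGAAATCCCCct
Rel (chr11:23770970-23771119, minus strand): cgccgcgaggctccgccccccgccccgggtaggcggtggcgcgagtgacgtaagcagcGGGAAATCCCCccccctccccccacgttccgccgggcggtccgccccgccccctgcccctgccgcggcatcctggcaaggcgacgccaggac
Nfkb2 (chr19:46304587-46304736, plus strand): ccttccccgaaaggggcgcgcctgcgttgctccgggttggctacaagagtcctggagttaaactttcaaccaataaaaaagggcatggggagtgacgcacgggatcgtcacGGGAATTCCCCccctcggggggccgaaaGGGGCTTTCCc

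The next windows belong to secreted targets with a match, which are followed through the comparisons below. The neighbouring chemokine genes Cxcl1, Cxcl2 and Cxcl3, which lie on chromosome 5, share the letters GGGAATTTCC, starting 71, 97 and 73 bases before the start.
Cxcl1 (chr5:90891095-90891244, plus strand): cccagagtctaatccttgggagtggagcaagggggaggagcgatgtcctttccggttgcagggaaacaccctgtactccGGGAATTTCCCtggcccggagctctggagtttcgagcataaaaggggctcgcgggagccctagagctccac
Cxcl2 (chr5:90903749-90903898, plus strand): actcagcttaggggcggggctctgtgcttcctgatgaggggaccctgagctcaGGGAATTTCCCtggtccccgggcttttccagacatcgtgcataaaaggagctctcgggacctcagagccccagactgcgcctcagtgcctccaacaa
Cxcl3 (chr5:90785951-90786100, plus strand): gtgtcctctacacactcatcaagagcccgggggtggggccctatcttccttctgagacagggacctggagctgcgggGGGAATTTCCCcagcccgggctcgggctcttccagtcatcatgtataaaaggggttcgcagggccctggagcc
Il6 (chr5:30012964-30013113, plus strand): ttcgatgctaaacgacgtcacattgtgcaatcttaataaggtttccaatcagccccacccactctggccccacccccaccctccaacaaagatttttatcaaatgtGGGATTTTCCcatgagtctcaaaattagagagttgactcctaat

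For contrast, no match stood in the windows of Il12b, Ptgs2 and Ccl3, although Il12b and Ptgs2 moved in several of the comparisons below. This says only that those letters are not in these windows.
Il12b (chr11:44399913-44400062, plus strand): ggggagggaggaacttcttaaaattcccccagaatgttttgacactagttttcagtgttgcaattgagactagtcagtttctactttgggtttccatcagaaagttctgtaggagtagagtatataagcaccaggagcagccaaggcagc
Ptgs2 (chr1:150099881-150100030, plus strand): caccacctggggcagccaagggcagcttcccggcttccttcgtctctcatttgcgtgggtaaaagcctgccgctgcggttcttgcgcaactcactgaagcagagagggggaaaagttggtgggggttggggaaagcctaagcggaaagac
Ccl3 (chr11:83649379-83649528, minus strand): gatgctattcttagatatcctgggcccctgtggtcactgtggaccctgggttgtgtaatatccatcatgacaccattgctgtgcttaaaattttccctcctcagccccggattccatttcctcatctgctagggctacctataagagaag

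Some facts of the libraries bear on every comparison. Total counts were 6456456 to 10434248 in macrophage libraries. In dendritic cells the 3 rDC libraries of LN PBS and the 3 mDC libraries of TDLN PBS held 10733509 to 15481059 counts, and the other 18 held 2002713 to 3842097. Of the macrophage libraries, 4 went against their labels: MSM LN PBS 2 and MSM TDLN CIS 1 were nearer the SSM libraries of their condition, and SSM LN PBS 2 and SSM TDLN CIS 3 nearer the MSM libraries, for 29 to 32 of the 32 members. They are called the 4 crossed libraries here, are kept under their labels, and the macrophage counts and the named changes are given with and without them. They were picked by their values in these same data. Leaving them out therefore favours differences between labels and smaller standard errors, and leaves 2 libraries in each of the 4 groups concerned. Among dendritic cells, rDC TDLN CIS 2 stood apart from the other 2 libraries of its group and held the highest of the 12 rDC values for 19 of the 32 members. No 2 libraries of a group agreed within counting noise. The labels of the dendritic cells were split by 6 migratory markers, Ccr7 among them. Their summed level was 28010 to 34790 CPM (counts scaled to the size of the library) in mDC and 843.1 to 1436 in rDC. The sum of 6 resident markers was 1012 to 1312 in mDC and 2334 to 4606 in rDC. General dendritic cell markers went both ways. Zbtb46 was lower in rDC (84.8 to 147 CPM against 467 to 619), as was Flt3, and H2-Ab1 was higher (10400 to 15600 against 2640 to 7520). Markers of other cells in rDC are given below.

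Migratory dendritic cells expressed most of the module at far higher levels than resident dendritic cells. Over all 4 conditions, 28 of 32 members were higher in mDC and 3 were lower (edgeR quasi-likelihood test over 24 libraries, adjusted p under 0.05). Among all 14548 genes tested, 35.6% were higher and 38.9% lower. The median member was 1.94 higher on the log2 scale, against -0.06 for all genes. The values of the 12 mDC and 12 rDC libraries did not overlap for 26 members, 81.2% of them, against 30.9% of all genes. In the single conditions 31 members were called in LN PBS and 31 in LN CIS, 29 in TDLN PBS and 29 in TDLN CIS, where 66.6%, 54.9%, 72.4% and 56.1% of all genes were called. In each of the 4 conditions 24 members were higher in mDC, and Nfkb1, Ccl3 and Ccl4 were lower. Markers of other cells differed between the same libraries: all 5 B cell markers (121.6 to 339.2 CPM summed in mDC and 1251 to 2733 in rDC), all 4 plasmacytoid markers (110.9 to 146.8 and 1589 to 3059), all 5 T cell and all 4 natural killer cell markers were lower in mDC. Of 12 genes known to rise when tissue is digested, immediate early and heat shock genes such as Fos and Egr1, 7 were higher in mDC and 3 lower (9441 to 14250 and 6796 to 9018). Their part in the result was not tested. The plot of member levels by library shows the separation gene by gene.

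**Figure D1:**
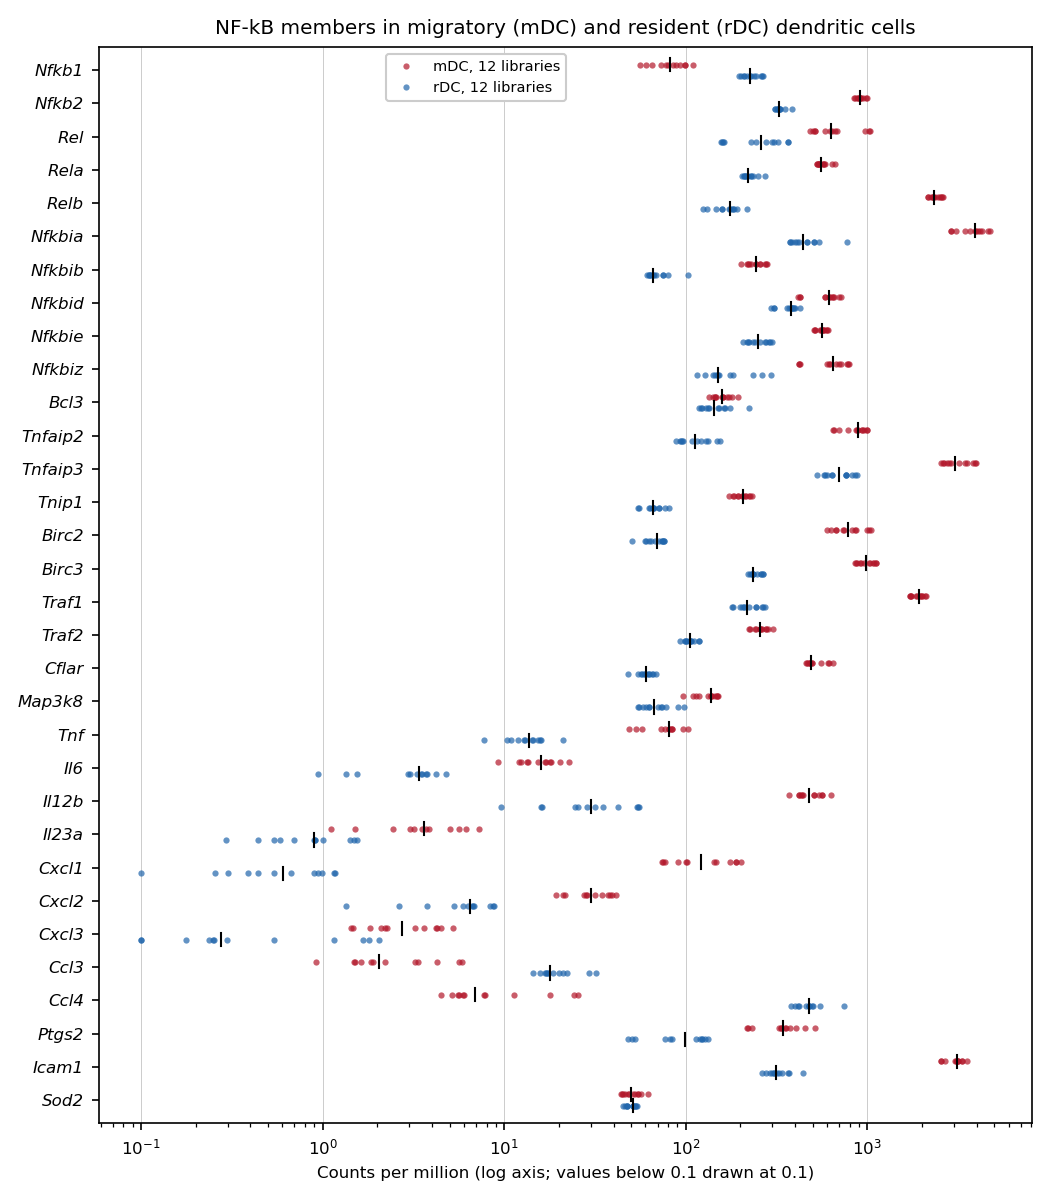
CPM of each of the 32 members (log axis) in the 12 mDC libraries (red) and the 12 rDC libraries (blue); the vertical tick is the median. Red points lie to the right for most members, while for Nfkb1, Ccl3 and Ccl4 the blue points do, and Sod2 and Bcl3 overlap.

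Of the 5 subunits, Relb, Nfkb2, Rela and Rel were higher in mDC, and Nfkb1 was lower. Relb, the noncanonical partner, ranged from 2160 to 2620 CPM in mDC with a median of 2340, and from 124 to 216 in rDC with a median of 174, a log2 difference of 3.83 ± 0.047 (SE; adjusted p = 3.86e-32). Nfkb2, which encodes p100 and p52, had medians of 907 and 325 CPM, and Rela, which encodes the main activating subunit, medians of 556 and 219. For Rel, the c-Rel gene of lymphoid and myeloid cells, the ranges were 486 to 1040 CPM in mDC and 157 to 367 in rDC, and the log2 difference was 1.44 ± 0.057. Nfkb1, the source of p105 and p50, was the exception: 55.9 to 109 CPM in mDC, median 82.4, against 196 to 267 in rDC, median 227. It was lower in mDC by a log2 difference of -1.50 ± 0.038 (adjusted p = 1.73e-24), with no overlap between the 12 libraries of each type.

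All 6 genes of the IkB family were called higher in mDC, but not equally. Nfkbia had 2870 to 4710 CPM in mDC, median 3940, and 374 to 771 in rDC, median 442, so the lowest mDC library was above the highest rDC library. Its log2 difference was 3.02 ± 0.057 (adjusted p = 1.19e-27). Nfkbiz, which encodes the nuclear IkB zeta that helps switch on secondary response genes, differed by 1.84 ± 0.041, Nfkbib by 1.78 ± 0.061 and Nfkbie by 1.16 ± 0.032. Nfkbid, another nuclear member, differed by 0.66 ± 0.032 with overlapping libraries and was not called in TDLN CIS. Bcl3, which encodes a coactivator of p50 and p52, differed by only 0.11 ± 0.049 (adjusted p = 0.0474). That call was lost in 16 of the 24 fits that left out 1 library, and in the single conditions Bcl3 was called higher in both LN conditions and lower in TDLN CIS, a call that needed each of mDC TDLN CIS 2, mDC TDLN CIS 3 and rDC TDLN CIS 2.

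The brakes and the survival genes followed the same order. Tnfaip3 had medians of 3040 CPM in mDC and 700 in rDC (log2 difference 2.18 ± 0.029), Tnip1, whose product binds A20, 206 and 66.2, and the induced gene Tnfaip2 882 and 112. Birc2, which encodes the ubiquitin ligase cIAP1, ranged from 597 to 1050 CPM in mDC and from 50.7 to 76.1 in rDC, a log2 difference of 3.56 ± 0.058. Its chromosome 9 neighbour Birc3, for cIAP2, differed by 2.02 ± 0.033. Cflar, which encodes the caspase 8 regulator c-FLIP, ranged from 459 to 643 CPM against 47.9 to 68.9 (3.11 ± 0.044), and Traf1, an adaptor of tumor necrosis factor receptors, had medians of 1910 and 216. Traf2 and the kinase gene Map3k8 showed smaller differences of 1.3 ± 0.034 and 0.92 ± 0.052, and Map3k8 overlapped.

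The secreted targets differed in both directions, and Cxcl1, Ccl4 and Il12b had the 3 largest differences of all members. Cxcl1, a neutrophil-attracting chemokine, was at 74.3 to 202 CPM in mDC, median 122, and at 0 to 1.17 in rDC, median 0.604. This was a 201-fold difference of means, and no rDC library came near the mDC range. Il12b, the p40 chain shared by interleukins 12 and 23, ranged from 368 to 627 CPM, median 475, against 9.55 to 55.3, median 30.2 (log2 difference 4.04 ± 0.055). Il23a, the partner chain of interleukin 23, was low in both, with medians of 3.62 and 0.900 CPM. Tnf had medians of 80.9 and 13.6 CPM, Il6 of 16 and 3.40, and Cxcl2 of 30.0 and 6.49, each without overlap; Cxcl3 overlapped at 2.75 and 0.276. The CC chemokines went the other way: Ccl4 was at 4.51 to 25.4 CPM in mDC, median 6.91, and at 379 to 742 in rDC, median 478 (-5.75 ± 0.085), and Ccl3 had medians of 2.04 and 18. Icam1, the ligand of the integrin LFA-1, ranged from 2530 to 3520 CPM in mDC and from 264 to 440 in rDC (3.23 ± 0.037), and Ptgs2, the inducible cyclooxygenase, had medians of 345 and 99.0. Sod2 did not pass the test, at medians of 49.9 and 51.1 CPM (0.01 ± 0.050, adjusted p = 0.817).

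Levels of different genes were compared in TPM, the deposited values scaled by transcript length and library. In mDC the members with the highest median TPM were Nfkbia at 6010, Icam1 at 1700, Traf1 at 1520, Relb at 1490 and Tnfaip3 at 1030. The ranges of Icam1, Traf1 and Relb over 12 libraries overlapped, and that of Tnfaip3 (904 to 1380) overlapped that of Traf1 (1320 to 1590). The order of these genes is therefore not fully resolved, while the lowest Nfkbia value, 4780 TPM, lay above all of them. In rDC, Ccl4 ranked first at 1360 TPM and Nfkbia second at 832, with overlapping ranges, followed by Nfkbid at 368. The range of Nfkbid (285 to 416) overlapped that of Tnfaip3 (243 to 375). By median, Nfkb1 moved from rank 26 of 32 in mDC to rank 7 in rDC, and Ccl4 from rank 29 to rank 1. These ranks are approximate, since the ranges of members next in rank overlapped.

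Other genes of the pathway, taken from a list of 36, were less one-sided. In mDC 23 were higher and 7 lower, 18 and 6 of them among the 29 canonical genes and 5 and 1 among the 7 noncanonical ones. The receptor genes Tnfrsf11a, which encodes RANK, and Cd40 were higher by 4.53 and 3.28 on the log2 scale, the adaptor gene Tank by 3.19 and the receptor gene Tnfrsf1b by 2.79. The receptor genes Tnfrsf13c and Tnfrsf1a were lower, at -2.45 and -1.52.

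In migratory dendritic cells of the TDLN, cisplatin went with lower levels of many members. After cisplatin 15 of 32 members were lower and 2, Nfkb1 and Bcl3, were higher; 13.2% of all 12519 genes were lower and 14.1% higher. The median member changed by -0.15 on the log2 scale, against -0.01 for all genes, and 19 members, 59.4%, did not overlap between the groups, against 43.7% of all genes. The falls were found in each role: Rel among the subunits, Nfkbia, Nfkbid and Nfkbiz among the inhibitors, Tnfaip3 and Tnfaip2, the survival genes Birc2, Birc3 and Cflar, Tnf and Il6, Cxcl1 and Cxcl2, and Ptgs2 and Icam1. All 3 deep mDC libraries are the PBS group of this comparison; with them thinned at random to about the depth of the others, 13 members were lower and 2 higher. The higher calls rested on the scaling: without the filter on low counts, which moved the median of all genes by -0.28, 26 members were lower and 0 higher, and with both dendritic cell types in 1 model 16 and 0.

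Cxcl1 changed most. Its levels were 67.8, 71.1 and 68.6 CPM after cisplatin and 171, 158 and 159 after PBS, without overlap, a log2 change of -1.23 ± 0.078 (adjusted p = 6.39e-11). Cxcl2 stood at 19.2, 17.9 and 19.7 CPM against 35.0, 32.2 and 33.0 (-0.82 ± 0.13, adjusted p = 4.45e-05). The 2 groups were again apart, and each sat in a narrow range. Ptgs2 had 201, 200 and 212 CPM after cisplatin and 301, 297 and 315 after PBS (-0.58 ± 0.061). Tnf had 52.3, 49.4 and 44.5 CPM against 68.0, 68.3 and 69.7 (-0.49 ± 0.099), and Il6 8.44, 12.4 and 12.4 against 14.3, 15.0 and 19.1. The Il6 call (adjusted p = 0.0413) was lost when CIS 1, CIS 2 or PBS 3 was left out, with adjusted p up to 0.218.

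Among the subunits and inhibitors, Rel was at 565, 589 and 608 CPM after cisplatin and 818, 861 and 873 after PBS, a log2 change of -0.54 ± 0.061 (adjusted p = 8.99e-07). Nfkb1 moved the other way, at 85.0, 81.4 and 77.6 CPM against 62.1, 65.7 and 66.9 (0.32 ± 0.074, adjusted p = 0.00219). Neither pair of groups overlapped. Nfkbia fell from 3610, 3490 and 3310 CPM to 2820, 2650 and 2620 (-0.36 ± 0.058), Nfkbiz from 524, 519 and 505 to 383, 387 and 386 (-0.42 ± 0.047), and Nfkbid from 520, 521 and 490 to 387, 394 and 381 (-0.40 ± 0.050). For each of the 3 genes every cisplatin library lay below every PBS library. Tnfaip3 changed by -0.46 ± 0.042 and Tnfaip2 by -0.41 ± 0.052. The changes of Cflar (-0.24), Birc2 (-0.21), Birc3 (-0.16) and Icam1 (-0.16) were smaller. Birc2 lost its call without CIS 1, CIS 2, PBS 2 or PBS 3, Birc3 without CIS 2, and Bcl3, higher by 0.25, without CIS 1 or PBS 2.

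Other measures moved with this comparison. Of the 12 digestion genes 9 were lower after cisplatin and none higher. Their summed level was 9441 to 10010 CPM after cisplatin and 13470 to 14250 after PBS. The sums are on the scale of both dendritic cell types, which moved the median of all genes by -0.12 in this comparison. All 5 B cell markers were higher, with sums of 316.6 to 339.2 CPM against 212.3 to 229.2. Their part in the result was not tested. In bulk libraries of sorted cells, fewer cells of a type and less RNA per cell cannot be told apart. Among the 36 other pathway genes 7 were lower and 3 higher. Card9, an adaptor below C-type lectin receptors, changed by -0.61 and Tank by -0.34. The receptor genes Tnfrsf13c and Il1r1 changed by 1.03 and 0.98. Il1r1 was low and the groups overlapped, at 7.76, 10.6 and 2.41 CPM after cisplatin against 3.9, 3.27 and 3.44 after PBS.

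In mDC of the LN, 8 members were lower after cisplatin and 4 higher, where 4.82% of all genes were lower and 6.15% higher; with both dendritic cell types in 1 model 4 were lower and 4 higher. The median member changed by -0.10 against -0.01 for all genes, and 20 members, 62.5%, did not overlap, against 25.8% of all genes. Cxcl1 was at 83.0, 92.0 and 91.0 CPM after cisplatin and 136, 135 and 165 after PBS (log2 change -0.72 ± 0.085, adjusted p = 2e-06). Ptgs2 was at 308, 300 and 304 CPM against 390, 471 and 423 (-0.49 ± 0.063). Both drops were larger than the spread within the groups. Nfkbia had 3190, 3350 and 3560 CPM after cisplatin and 4440, 3720 and 4410 after PBS (-0.32 ± 0.059), and Rel 469, 457 and 442 against 493, 624 and 546 (-0.28 ± 0.066). Tnfaip3, Birc3, Traf1 and Nfkbiz changed by -0.31, -0.27, -0.25 and -0.20.

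The members that rose in mDC of the LN were Nfkb1, Ccl4, Traf2 and Map3k8. Nfkb1 was at 100, 90.7 and 90.1 CPM after cisplatin and 53.5, 55.7 and 60.8 after PBS, a log2 change of 0.73 ± 0.091 (adjusted p = 4.25e-06). Ccl4 was at 16.4, 22.3 and 23.1 CPM against 10.9, 7.22 and 7.28 (1.25 ± 0.23, adjusted p = 0.000577), low levels beside those of rDC. Traf2 changed by 0.29 ± 0.065. Map3k8, at 0.33, overlapped between the groups and lost its call without CIS 1, CIS 2, PBS 1 or PBS 3. Here 6 of the 12 digestion genes were higher after cisplatin and 3 lower, with sums of 11600 to 12310 CPM against 10890 to 11300, 4 of 5 B cell markers were higher (253.6 to 287.2 against 121.6 to 134.8), and so were 2 of 4 general dendritic cell markers (8079 to 9003 against 5037 to 5265); their part in the result was not tested. In the pathway list 2 of 36 genes were higher, Tnfrsf1a by 0.70 among them, and 3 lower, Card9 by -0.91 and both Malt1 and Traf3 by -0.31.

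**Figure D2:**
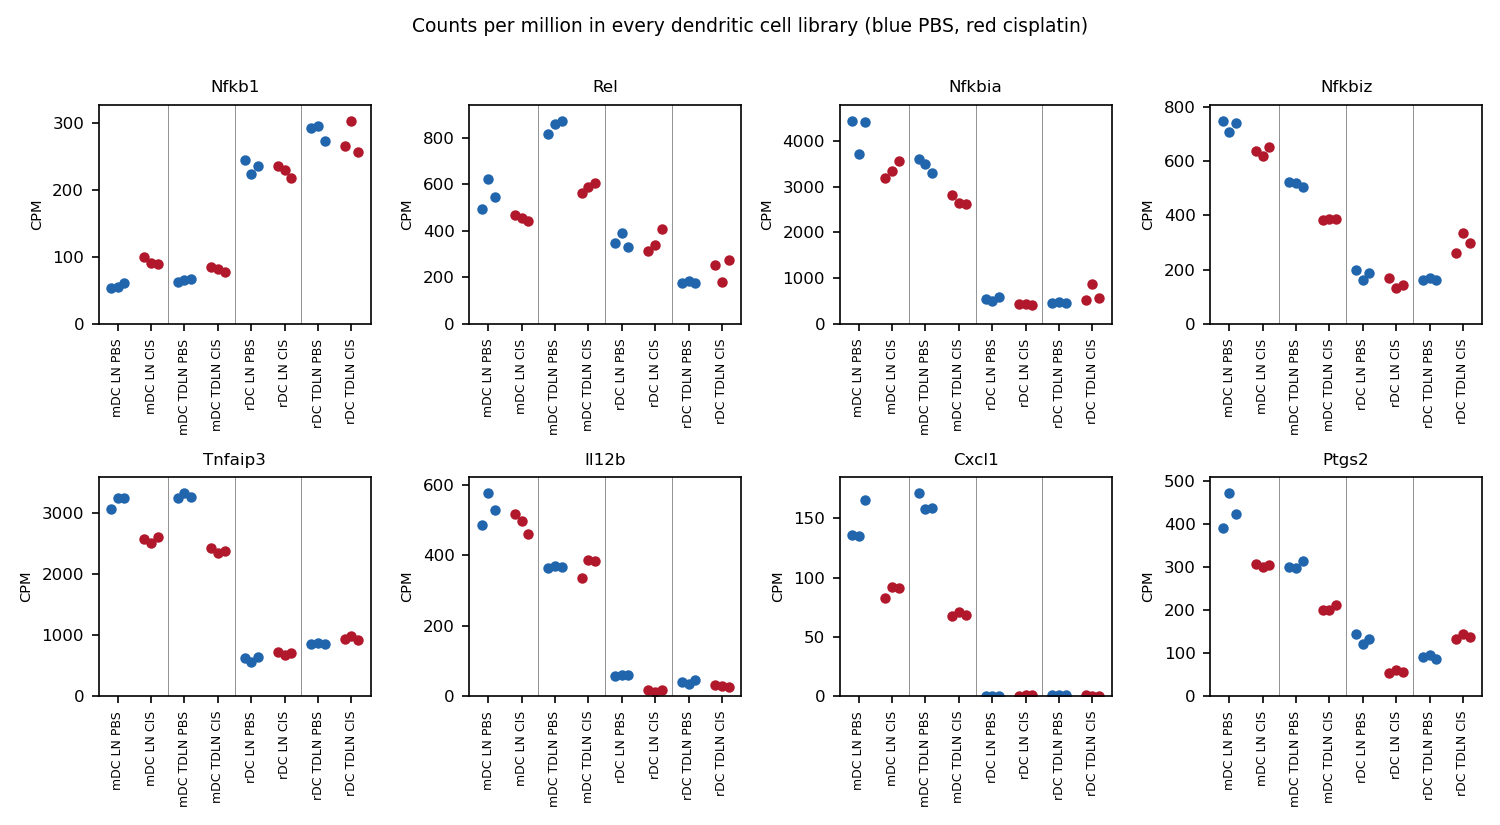
CPM (linear axes) of 8 members in each dendritic cell library, PBS in blue and cisplatin in red, 3 points per group, each cell type scaled in its own model. Cxcl1 and Tnfaip3 are lower in red than in blue in both mDC node groups, Nfkb1 is higher, and in rDC Ptgs2 falls in LN and rises in TDLN.

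In resident dendritic cells the 2 nodes differed. In the TDLN 4 of the 29 members tested rose after cisplatin and none fell, against 0.399% of all 14023 genes that rose and 0.613% that fell; 15 members had an unadjusted p under 0.05. The median member changed by 0.21 against 0.00 for all genes, and 15 members, 51.7%, did not overlap, against 12.6% of all genes. Nfkbiz stood at 260, 335 and 296 CPM after cisplatin and 160, 170 and 161 after PBS (log2 change 0.86 ± 0.11, adjusted p = 0.000278). Ptgs2 stood at 133, 144 and 138 CPM against 91.7, 94.9 and 85.5 (0.61 ± 0.091, adjusted p = 0.00118). These calls held whichever library was left out. Map3k8, at 99.9, 83.9 and 109 CPM against 70.2, 62.8 and 65.2 (adjusted p = 0.016), lost its call without CIS 1, CIS 3, PBS 2 or PBS 3. Nfkbid, at 426, 485 and 402 against 346, 344 and 328 (adjusted p = 0.0261), lost it without any 1 of the PBS libraries.

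The count changed with the tool and with the libraries in the fit. DESeq2 called 8 members, a model of both dendritic cell types 9, and a fit of all genes with the scaling of the filtered ones 10, all of them higher. Without rDC TDLN CIS 2, 8 members were called, all higher: Rel (0.56), Nfkbia (0.26), Icam1 (0.30) and Cxcl2 (1.52) joined the 4. Cxcl2 was near the floor, at 4.25, 1.51 and 2.95 CPM after PBS. Without PBS 2 or PBS 3, 2 members were called. Nfkbia itself was at 519, 875 and 571 CPM after cisplatin and 448, 473 and 458 after PBS. The groups did not overlap, CIS 2 was far above the other 2 libraries, and the gene was not called with all libraries. Beside these values, 5 of the 12 digestion genes rose and none fell (7139 to 9018 CPM against 6796 to 7168), 4 of 5 T cell markers fell (80.31 to 101.9 against 223.1 to 238.0), and 4 of 6 migratory markers fell (843.1 to 965.2 against 1316 to 1363). Their part in the result was not tested. Of the 36 other pathway genes edgeR called 0, and 3 had an unadjusted p under 0.05.

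In the LN, 6 members of rDC were lower after cisplatin and 2 higher, where 7.17% of all genes were lower and 10.7% higher. Without the filter on low counts, which moved the median of all genes by -0.30, 14 were lower and 0 higher. Of the 29 tested members 13, or 44.8%, did not overlap, close to the 41.8% of all genes. Il12b had the largest change: 18.3, 10.9 and 17.7 CPM after cisplatin against 58.8, 59.1 and 59.0 after PBS (log2 change -1.90 ± 0.15, adjusted p = 5.4e-07). Ptgs2 was at 54.6, 59.9 and 56.2 CPM against 144, 122 and 133 (-1.23 ± 0.091, adjusted p = 2.32e-07). Both genes fell beyond any overlap. Nfkbie was at 245, 237 and 244 CPM against 299, 306 and 322 (-0.35 ± 0.075), and Tnfaip2 at 106, 110 and 106 against 162, 129 and 167 (-0.51 ± 0.11). Relb, at 166, 150 and 138 CPM against 194, 188 and 207 (-0.38 ± 0.11), and Traf1, at 227, 208 and 201 against 284, 261 and 288 (-0.39 ± 0.11), were called but lost the call without CIS 2, CIS 3 or PBS 3, and without PBS 3. The higher calls, Tnfaip3 at 0.22 and Map3k8 at 0.38, were each lost in 5 or more of the 6 fits that left out a library. The count was 5 without CIS 2 or CIS 3 and 4 without PBS 3.

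The make-up of these libraries also moved. All 5 T cell markers and all 4 natural killer cell markers were higher after cisplatin in LN (191.2 to 205.4 against 50.40 to 68.12 CPM, and 63.97 to 70.15 against 4.863 to 8.862). All 4 general dendritic cell markers and 4 of 6 migratory markers were lower, with sums of 10950 to 12170 against 15250 to 16110 and of 1240 to 1344 against 1378 to 1436. The sums are on the scale of both dendritic cell types, which moved the median of all genes by -0.06 here. The small gap between the migratory sums depends on that scale. Of the 12 digestion genes 5 were lower and none higher (6838 to 7146 against 8130 to 8751). The 3 PBS libraries here are the deep ones, and thinned in the same way they gave 6 lower and 1 higher member. What part these differences had in the result was not tested. Among other pathway genes, Ikbke, an IkB kinase-related gene, was higher by 1.43, Tnfrsf1b by 0.45, and Tnfrsf1a lower at -0.58.

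**Figure D3:**
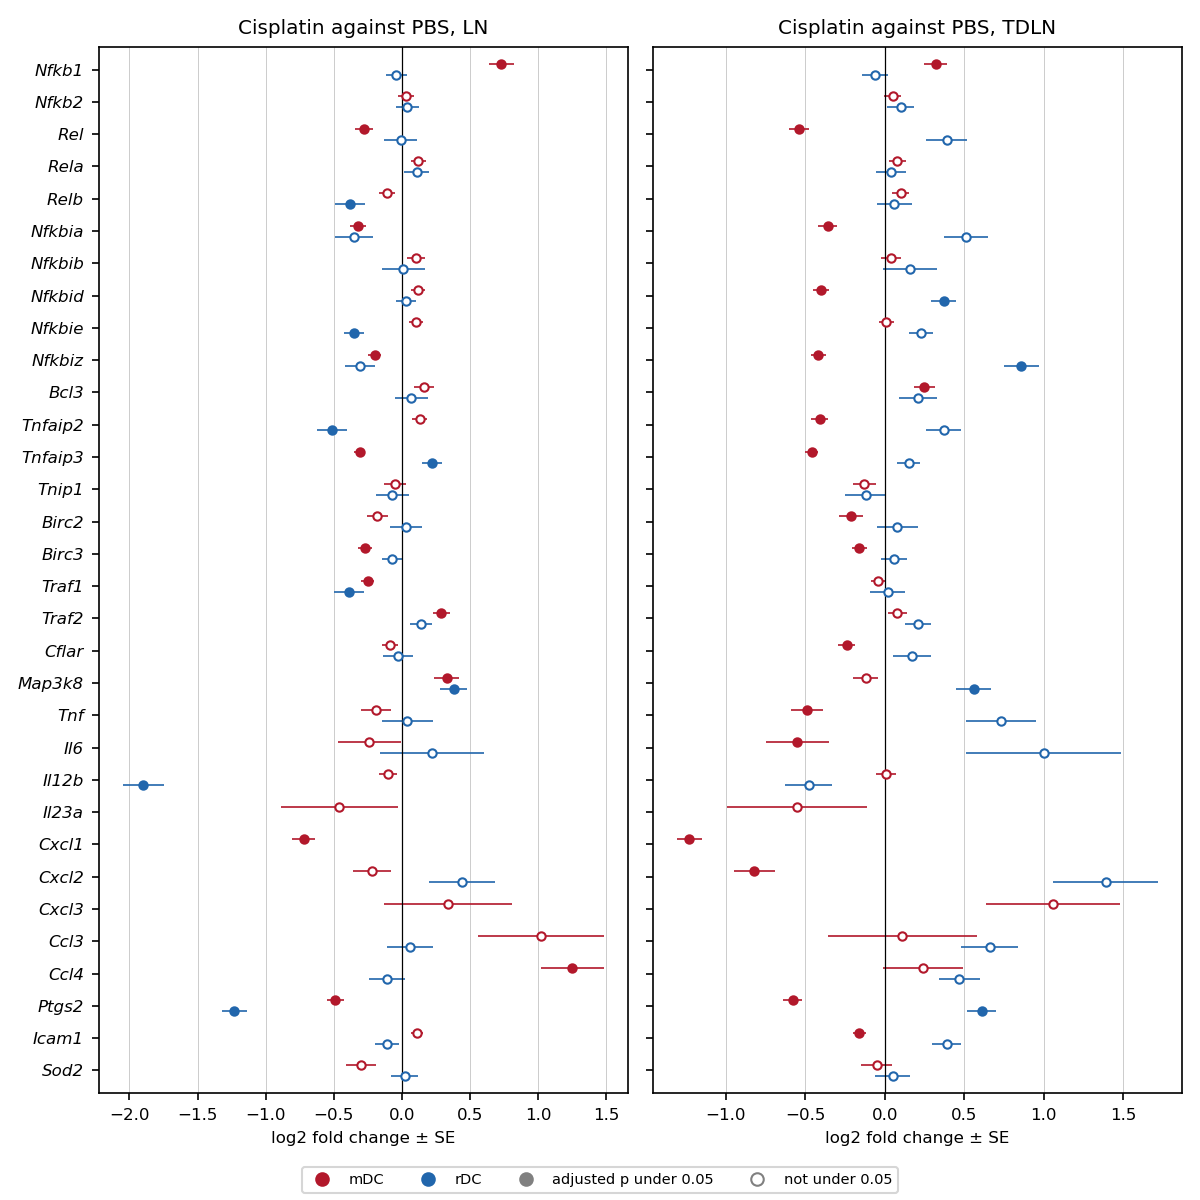
Log2 fold change of cisplatin against PBS, with its standard error, for each member in LN (left) and TDLN (right), mDC in red and rDC in blue; filled points have an adjusted p under 0.05. In TDLN the filled red points lie mostly left of 0 and the filled blue points right of it; in LN Il12b and Ptgs2 of rDC lie farthest left.

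The differences between effects were tested themselves. In the TDLN the effect of cisplatin was lower in mDC than in rDC for 15 of 32 members and higher for none, where 6.91% of all genes were lower and 5.88% higher; the median member differed by -0.41 against -0.08 for all genes. DESeq2 called 15 lower and 2 higher. Nfkbiz differed by -1.41 ± 0.11 (adjusted p = 1.23e-09), Ptgs2 by -1.31 ± 0.11, Rel by -1.06 ± 0.16 and Nfkbia by -1.0 ± 0.15. In the LN 8 members had a higher effect in mDC and 2 a lower one, against 10.6% and 6.48% of all genes, and 23 and 1 without the filter on low counts, which moved the median of all genes by 0.50. Il12b (1.89 ± 0.16) and Nfkb1 (0.87 ± 0.11) were among the higher ones. Between nodes, the effect in mDC was lower in TDLN for 9 members and higher for 1, Traf1, against 7.17% and 8.43% of all genes. In rDC it was higher in TDLN for 7 of the 29 members tested and lower for none, against 2.62% and 2.70%; Ptgs2 differed by 1.84 ± 0.13 and Nfkbiz by 1.17 ± 0.15.

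The node itself went with differences in the members. These comparisons share their libraries with the cisplatin comparisons above, so each is given by its own values. In mDC after PBS 14 members were lower in TDLN than in LN and 3, Rel, Birc2 and Cflar, were higher, against 14.3% and 14.8% of all genes. This direction depended on the scaling. Without the filter on low counts, which moved the median of all genes by 0.35, 18 members were higher and 2 lower, and 10 of the 14 turned to positive values. With both dendritic cell types in 1 model, which moved that median by 0.16, 9 were higher and 4 lower, and Icam1 turned. Rel, Birc2 and Cflar were higher, and Nfkbiz and Il12b lower, in each of these fits. In mDC after cisplatin 16 were lower and 2, Rel and Birc2, higher, against 7.21% and 7.57%. Nfkbiz was lower in TDLN in both, at -0.50 ± 0.046 and -0.72 ± 0.049, as were Il12b (-0.52 and -0.42), Ptgs2 (-0.49 and -0.57) and Ccl4 (-0.95, lost without LN PBS 1, and -1.95). After PBS Ptgs2 and Ccl4 lost the call without the filter. Rel was higher in TDLN, by 0.62 ± 0.062 after PBS and 0.36 ± 0.065 after cisplatin. All 6 IkB family genes were lower in TDLN after cisplatin. After PBS 5 of 6 were, of which Nfkbia, Nfkbib, Nfkbid and Bcl3 turned to positive values without the filter and lost the call in the model of both types. After cisplatin Bcl3 and Nfkbie lost the call without LN CIS 2, TDLN CIS 2 or TDLN CIS 3. Digestion genes moved in opposite ways under the treatments: after PBS 6 of 12 were higher in TDLN and 3 lower (13470 to 14250 CPM against 10890 to 11300), and after cisplatin 2 were higher and 8 lower (9441 to 10010 against 11600 to 12310). Of the 4 general dendritic cell markers 2 were lower in TDLN after PBS (4130 to 4247 against 5037 to 5265) and 2 after cisplatin (4801 to 5128 against 8079 to 9003), and B cell markers were higher, 4 of 5 and 2 of 5. The sums of these marker and digestion genes are on the scale of both dendritic cell types. Their part was not tested.

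In rDC the node comparison depended on the treatment. After PBS 7 members were lower in TDLN and 3 higher, against 12.1% and 14.9% of all genes; without the filter on low counts, which moved the median of all genes by -0.26, 16 were lower and 1 higher. Rel led, at 177, 185 and 177 CPM in TDLN and 350, 391 and 332 in LN (-0.99 ± 0.13, adjusted p = 2.84e-05), and Tnfaip3 was higher by 0.49 ± 0.071. The count was 6 in all without rDC TDLN PBS 2. After cisplatin 13 members were higher in TDLN and 1, Rel (-0.59 ± 0.13), was lower, against 7.83% and 6.97%. Ptgs2 was higher by 1.28 ± 0.095, Nfkbiz by 1.00 ± 0.11, Il12b by 0.90 ± 0.17 and Nfkbia by 0.62 ± 0.14. Rel was called higher in TDLN than in LN in mDC and lower in rDC under both treatments; the difference between the cell types was not tested. B cell markers were lower in TDLN for rDC (1251 to 1460 CPM against 2358 to 2733), and plasmacytoid markers higher (2877 to 3059 against 1589 to 1763), under both treatments. T cell markers were higher in TDLN after PBS, 5 of 5 (223.1 to 238.0 against 50.40 to 68.12), and lower after cisplatin, 4 of 5 (80.31 to 101.9 against 191.2 to 205.4). Natural killer cell markers followed them, with 3 of 4 higher after PBS (14.97 to 21.76 against 4.863 to 8.862) and 3 of 4 lower after cisplatin (20.85 to 24.77 against 63.97 to 70.15). Of the 12 digestion genes 6 were lower in TDLN after PBS and 4 higher after cisplatin. The part of these genes was not tested.

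In macrophages the comparison of the cell types is given first. With all libraries under their labels, no difference between MSM and SSM was called in LN PBS or in TDLN CIS, the conditions that hold the crossed libraries. There 0 members were called by edgeR and 0 by DESeq2, 0 had an unadjusted p under 0.05, and 0.0% of all 19671 genes were called. Each label in these conditions holds a library nearer the other label, so this test cannot show that the types were alike. In LN CIS 11 members were called, where 49.7% of all genes were, and in TDLN PBS 11, where 40.8% were, with 7 without any 1 of the MSM TDLN PBS libraries. Without the 4 crossed libraries 26, 27, 26 and 29 members were called in LN PBS, LN CIS, TDLN PBS and TDLN CIS, beside 62.0%, 72.4%, 67.1% and 63.3% of all genes. Those libraries were picked for lying nearer the other label, so the calls in LN PBS and TDLN CIS follow in part from that choice. In the fits without them all 7 neutrophil markers were higher in MSM in LN PBS, TDLN PBS and TDLN CIS. All 5 B cell markers were lower in MSM in these 3 conditions and higher in LN CIS. The part of these markers was not tested. The labels of the macrophages were checked against 10 sinus macrophage markers. Their summed level, without the crossed libraries, was 4171 to 5505 CPM in SSM LN PBS, LN CIS and TDLN CIS, 1365 to 1503 in SSM TDLN PBS, 1016 to 1995 in 3 MSM groups and 284.2 to 308.0 in MSM LN CIS. In MSM LN CIS Siglec1, the CD169 gene that defines these cells, was at 0 in 2 libraries and 0.287 CPM in the third. Without the crossed libraries it was also low in MSM LN PBS (15.5 and 19.6), MSM TDLN CIS (17.8 and 25.3) and SSM TDLN PBS (8.04 to 14.2). It stood at 128 to 150 in MSM TDLN PBS, 173 to 187 in SSM LN CIS, 172 and 179 in SSM TDLN CIS, and 357 and 360 in SSM LN PBS. Siglec1 therefore did not mark every group of either label. Other markers of the list went opposite ways without the crossed libraries. Adgre1 was higher in MSM than in SSM in LN PBS (538 and 538 CPM against 194 and 205) and in TDLN CIS (512 and 496 against 159 and 169). It was lower in MSM in LN CIS (3.43 to 3.93 against 371 to 401) and overlapped in TDLN PBS. Marco was at 600 to 1370 in SSM outside TDLN PBS, at 18.1 to 20.5 in SSM TDLN PBS, and at no more than 4.63 in MSM. Vsig4 was at 0 in all 24 macrophage libraries.

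In MSM of the LN, 12 members were lower after cisplatin and 5 higher with all libraries, where 43.4% of all genes were called. Without the crossed library MSM LN PBS 2, and with the other crossed libraries left out of the same fit, 22 were lower and 6 higher, against 40.7% and 33.4% of all genes, and the median member changed by -0.70 against -0.08; with all libraries the medians were -0.70 and -0.15. With all libraries the count was 9 to 11 without any 1 of the CIS libraries or without PBS 3. Nfkbia was at 877, 794 and 868 CPM after cisplatin and 2200, 625 and 2100 after PBS, where 625 is the crossed library; without it the log2 change was -1.34 ± 0.056, and with it -0.96 ± 0.49, which was not called. Nfkbiz was at 331, 326 and 358 CPM against 1130, 278 and 1160 (-1.75 ± 0.050 without the crossed library and -1.34 ± 0.58, not called, with it). In both genes the crossed library fell below all cisplatin libraries and the other PBS libraries lay far above them. Cxcl2 was at 14.9, 15.3 and 15.0 CPM against 209, 26.1 and 236 (-3.88 ± 0.089 without and -3.38 ± 0.82 with the crossed library), and Tnf at 18.3, 16.7 and 18.7 against 107, 28.5 and 118 (-2.64 ± 0.091 and -2.23 ± 0.64). Both were called either way, but with all libraries Tnf lost its call in 4 of the 6 fits that left out a library.

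For Rel, Relb and Bcl3 in MSM of the LN the crossed library lay with the other PBS libraries. Rel was at 278, 337 and 298 CPM after cisplatin and 125, 152 and 131 after PBS, a log2 change of 1.16 ± 0.12 with all libraries (adjusted p = 6.49e-05) and 1.26 ± 0.082 without the crossed ones. Relb was at 405, 366 and 395 CPM against 251, 259 and 237 (0.64 ± 0.10, adjusted p = 0.000772, and 0.68 ± 0.065 without). Bcl3 was at 72.0, 65.3 and 65.6 CPM against 160, 174 and 172 (-1.32 ± 0.12, adjusted p = 2.4e-05, and -1.29 ± 0.079 without). Rel and Relb rose while Bcl3 fell, with no overlap and in every fit that left out a library. Map3k8 was at 15.5, 22.3 and 17.6 CPM against 75.6, 49.0 and 90.8 (-1.96 ± 0.27 with and -2.16 ± 0.13 without the crossed library). Nfkb1 was at 66.3, 60.5 and 66.9 CPM against 114, 72.2 and 112, the crossed library being nearest to the cisplatin values (-0.62 ± 0.16 and -0.80 ± 0.070). Il12b, at 18.4, 21.3 and 17.6 CPM against 1.49, 2.61 and 1.17, was higher (3.42 ± 1.20 and 3.83 ± 0.26), but lost its call in each of the 6 fits that left out 1 library.

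Marker genes of other cells differed between the same groups. Without the crossed libraries, all 7 neutrophil markers were lower in MSM LN after cisplatin (13.62 to 16.40 CPM summed, with 4 or 5 of 7 at 0, against 4341 to 4516), 7 of the 8 sinus macrophage markers tested were lower (284.2 to 308.0 against 1985 to 1995), and all 5 B cell markers (3600 to 3671 against 202.4 to 204.2) and all 6 mast cell markers (1831 to 1857 against 68.92 to 72.53) were higher. All 6 migratory dendritic cell markers were higher (4394 to 4608 against 485.5 to 506.6), as were all 4 natural killer cell markers (212.8 to 228.7 against 36.18 to 37.60) and 3 of 4 plasmacytoid markers (376.5 to 401.0 against 127.0 to 134.5). Of the 12 digestion genes 9 were lower and 2 higher (6688 to 7099 against 14710 to 15060). Their part in the members' changes was not tested.

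In MSM of the TDLN, 10 members were higher after cisplatin and 0 lower with all libraries, where 37.1% of all genes were called. Without the crossed library MSM TDLN CIS 1 and the other 3, 22 were higher and 2 lower, against 41.6% and 27.4% of all genes, with medians of 0.54 and 0.14 (0.29 and 0.19 with all libraries). With all libraries 3 to 5 members were called without CIS 2, CIS 3 or any 1 of the PBS libraries. Cxcl2 was at 28.4, 186 and 208 CPM after cisplatin, the first value from the crossed library, and at 27.7, 31.0 and 27.3 after PBS (2.78 ± 0.081 without the crossed library, 2.30 ± 0.78 with it). Il12b was at 0.304, 32.5 and 26.9 CPM after cisplatin, while no count was found in the 3 PBS libraries; it was called with and without the crossed library. Cflar was at 164, 110 and 103 CPM against 59.7, 58.2 and 55.9 (1.12 ± 0.23 with all libraries, adjusted p = 0.00444, and 0.88 ± 0.080 without the crossed ones), and held its call in every fit that left out a library. Nfkbia, at 921, 2960 and 3270 CPM against 2650, 2380 and 2530, was called only without the crossed library, at 0.31 ± 0.056 (-0.08 ± 0.48 with it), and so were Tnfaip3, at 0.59 ± 0.038 (0.11 ± 0.58), Ptgs2, at 2.18 ± 0.076 (1.68 ± 0.71), and Traf1, at 1.02 ± 0.062 (0.62 ± 0.38). Without the crossed libraries 11 of 12 digestion genes were higher and none lower (18450 to 20810 against 10520 to 10690 CPM), 4 of 7 neutrophil markers were lower and 1 higher (5149 to 5326 against 7662 to 7944), and all 6 mast cell markers were higher (3010 to 3064 against 0 to 0.2684, with 5 or 6 of 6 at 0). Migratory dendritic cell markers were higher, 5 of 6 with 1 lower (1936 to 2019 against 607.5 to 666.6), B cell markers were higher, 5 of 5 (293.6 to 297.6 against 25.56 to 30.19), and of the 8 sinus macrophage markers tested 6 were lower and 2 higher (1016 to 1020 against 1684 to 1794). Their part was not tested.

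In SSM most counts changed when the crossed libraries were left out. In the LN 3 members were lower after cisplatin and 1 higher of 31 tested with all libraries, where 13.3% of all genes were called. Without SSM LN PBS 2 and the other 3 crossed libraries, 17 were higher and 7 lower, against 30.1% and 29.9% of all genes, with medians of 0.49 and 0.00 (-0.01 and -0.04 with all libraries). Leaving out SSM LN PBS 2 alone gave 11 members, and leaving out any other library 1 or 2. Nfkbia was at 1330, 1460 and 1390 CPM after cisplatin and 581, 2180 and 531 after PBS, with the crossed library at 2180 (1.35 ± 0.071 without it, 0.34 ± 0.60 with it). Ccl4 was at 145, 149 and 147 CPM against 16.7, 254 and 16.5 (3.17 ± 0.080 and 0.62 ± 0.92), and Nfkb1 at 124, 128 and 128 against 59.1, 113 and 61.3 (1.10 ± 0.066 and 0.71 ± 0.21). None of the 3 was called with all libraries. In each of these the cisplatin libraries lay above the 2 uncrossed PBS libraries. Bcl3, at 100, 106 and 103 CPM against 163, 157 and 146 (-0.59 ± 0.098 with all libraries, adjusted p = 0.00552, and -0.56 ± 0.070 without the crossed ones), was lower with and without the crossed library. Of the 12 digestion genes 9 were higher and 3 lower without the crossed libraries (13700 to 14520 against 7634 to 8174 CPM), B cell markers were lower, 5 of 5 (169.7 to 177.1 against 2660 to 2731), and mast cell markers were lower, 6 of 6 (20.52 to 21.51 against 983.2 to 992.4, with 2 of 6 at 0 after cisplatin), while T cell markers were higher, 5 of 5 (1117 to 1162 against 377.3 to 400.5), and monocyte markers higher, 4 of 4 (1550 to 1695 against 240.9 to 246.1); their part was not tested.

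In the TDLN, 2 members of SSM were higher after cisplatin and 1 lower with all libraries, where 23.0% of all genes were called. Without SSM TDLN CIS 3 and the other 3 crossed libraries, 22 were lower and 4 higher, against 36.5% and 34.6% of all genes, with medians of -0.65 and -0.02 (0.02 and 0.03 with all libraries). Leaving out SSM TDLN CIS 3 alone gave 9 members, and leaving out CIS 1, CIS 2, PBS 2 or PBS 3 gave 1. Rel was at 140, 144 and 111 CPM after cisplatin and 76.5, 63.0 and 66.1 after PBS, a log2 change of 0.94 ± 0.15 with all libraries (adjusted p = 0.00236) and 1.07 ± 0.075 without the crossed ones. It was the member whose call held in every fit that left out a library. Nfkbia was at 854, 795 and 3100 CPM against 1410, 1620 and 1660 (-0.91 ± 0.069 without the crossed library, the third value, and 0.02 ± 0.60 with it). Cxcl2 was at 29.6, 26.1 and 202 CPM against 91.7, 80.1 and 69.5 (-1.52 ± 0.11 and 0.09 ± 0.96), and the change of Tnfaip3 was -1.77 ± 0.048 and -0.19 ± 0.69. None of the 3 was called with all libraries. Without the crossed ones 9 of 12 digestion genes were lower and 3 higher (6281 to 6837 against 13050 to 14500 CPM), 8 of the 9 sinus macrophage markers tested were higher and 1 lower (4171 to 4195 against 1365 to 1503), and all 5 B cell markers were higher (3486 to 3570 against 747.7 to 760.8), all 6 mast cell markers were higher (1798 to 1842 against 9.240 to 12.43), and all 5 T cell markers were lower (292.3 to 298.0 against 1841 to 1964); their part was not tested. The difference between the effects in MSM and SSM was not tested.

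**Figure D4:**
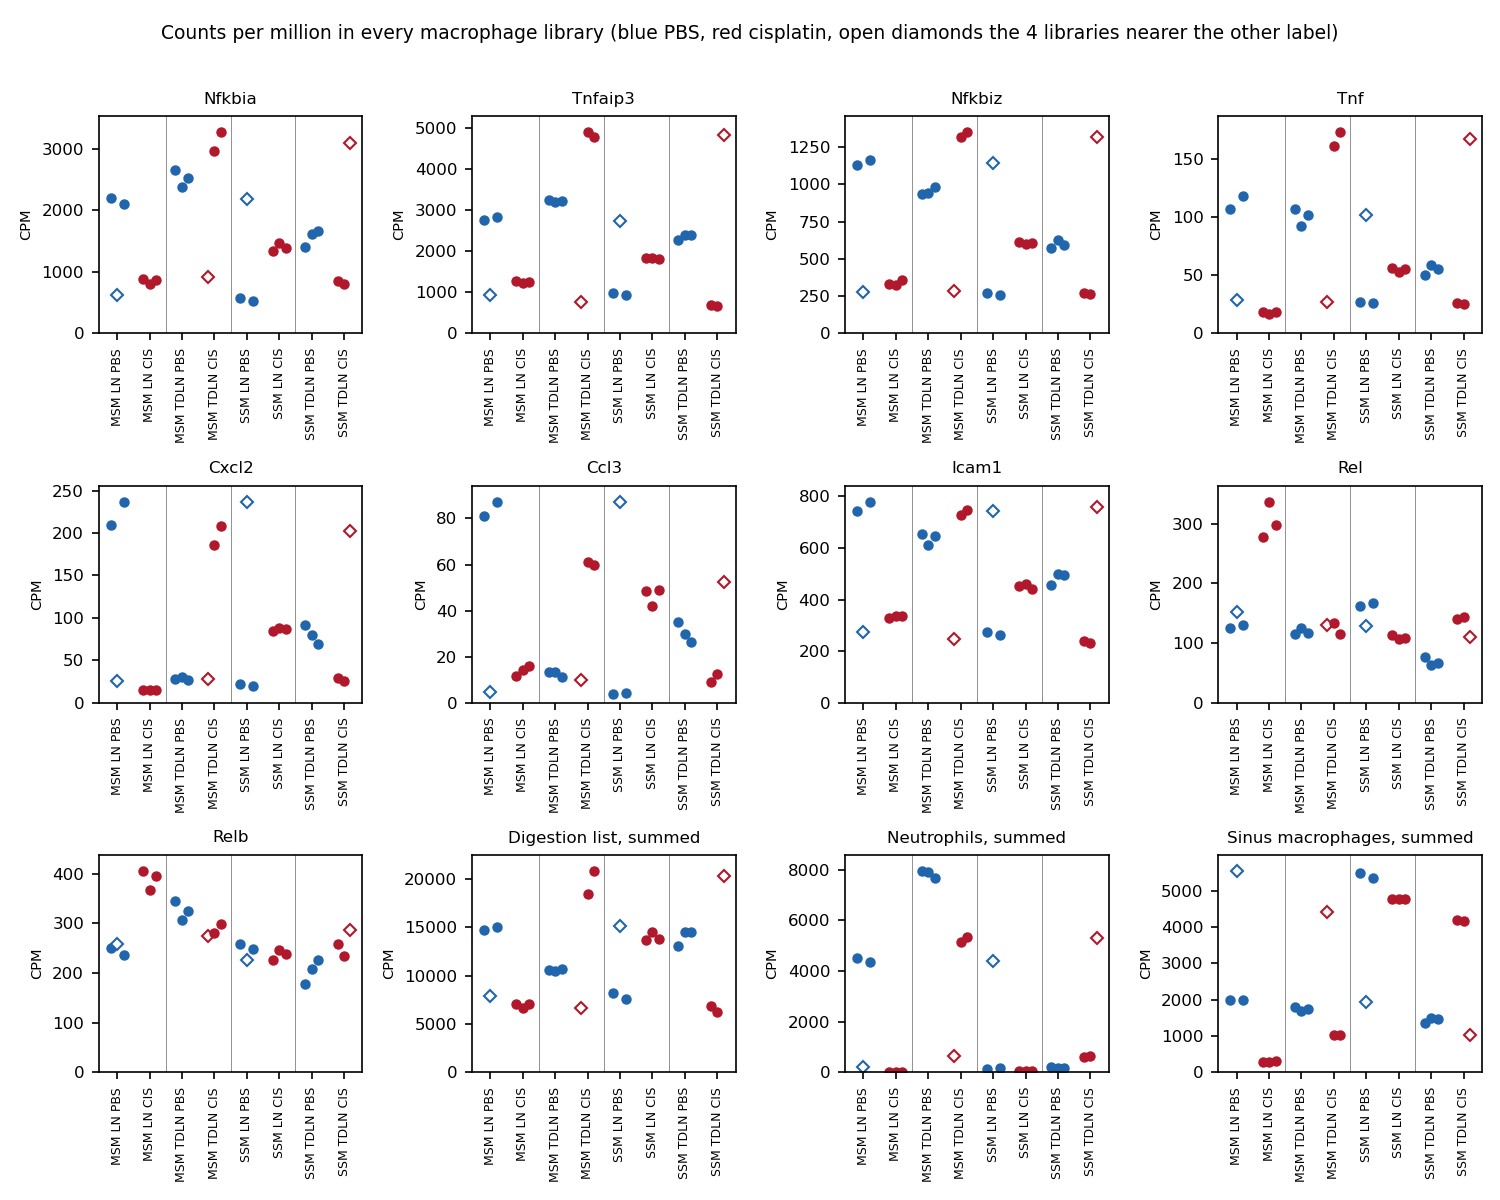
CPM (linear axes) of 9 members and the summed level of 3 marker lists in each macrophage library, PBS in blue, cisplatin in red, and the 4 crossed libraries as open diamonds. Without the crossed libraries, Nfkbia, Tnfaip3, Nfkbiz, Tnf and Icam1 and the summed digestion genes are all lowest in MSM LN CIS, SSM LN PBS and SSM TDLN CIS, while Rel is highest in MSM LN CIS.

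Between nodes, the macrophage counts also changed when the crossed libraries were left out. In MSM after PBS 12 members differed between TDLN and LN, where 38.2% of all genes did; without the crossed libraries 19 were lower in TDLN and 5 higher, against 40.7% and 29.0%. In MSM after cisplatin 14 differed (43.3% of all genes), and without the crossed libraries 24 were higher and 5 lower, against 41.6% and 32.8%. The counts with all libraries were 5 to 7 in MSM PBS without LN PBS 1 or any 1 of the TDLN libraries, and 9 in MSM CIS without LN CIS 1 or LN CIS 3. In SSM after PBS 5 members differed (19.7%), 12 without LN PBS 2, and 3 without TDLN PBS 2 or TDLN PBS 3; without the crossed libraries 23 were higher and 6 lower, against 34.0% and 33.8%. In SSM after cisplatin 5 differed (17.4%), 13 without TDLN CIS 3, 3 without TDLN CIS 1 or TDLN CIS 2 and 0 without any 1 of the LN libraries; without the crossed libraries 21 were lower and 7 higher, against 31.8% and 30.1%. Bcl3 was lower in TDLN after PBS in both types, by -1.11 ± 0.12 in MSM and -1.17 ± 0.10 in SSM with all libraries, calls that held in every fit that left out a library, and by -1.08 ± 0.078 and -1.15 ± 0.072 without the crossed ones. Rel was lower in TDLN by -1.15 ± 0.15 in SSM after PBS and by -1.27 ± 0.12 in MSM after cisplatin, and by -1.25 ± 0.074 and -1.29 ± 0.082 without the crossed libraries.

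Markers moved between the nodes as well, on the basis without the crossed libraries. In MSM after PBS all 5 B cell markers (25.56 to 30.19 CPM in TDLN against 202.4 to 204.2 in LN), all 6 mast cell markers (0 to 0.2684 against 68.92 to 72.53) and 10 of 12 digestion genes (10520 to 10690 against 14710 to 15060) were lower in TDLN. In MSM after cisplatin all 7 neutrophil markers (5149 to 5326 against 13.62 to 16.40) and 10 digestion genes (18450 to 20810 against 6688 to 7099) were higher, and all 5 B cell markers lower (293.6 to 297.6 against 3600 to 3671). In SSM after PBS all 5 B cell markers were lower (747.7 to 760.8 against 2660 to 2731), and all 5 T cell markers (1841 to 1964 against 377.3 to 400.5) and 9 digestion genes (13050 to 14500 against 7634 to 8174) were higher. In SSM after cisplatin all 5 B cell markers were higher (3486 to 3570 against 169.7 to 177.1), and so were the 6 neutrophil markers tested (587.4 to 642.3 against 41.64 to 48.04), while 10 digestion genes were lower (6281 to 6837 against 13700 to 14520). The part of these genes in the members' differences was not tested.

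Across the 16 groups the members did not move as a block. With the crossed libraries set aside, the lowest and highest Rel groups were SSM TDLN PBS, at 63.0 to 76.5 CPM, and mDC TDLN PBS, at 818 to 873, in models scaled separately for each cell type. Relb stood at 1870 to 2460 CPM in all mDC libraries and at no more than 405 in any library of the other 3 types. Nfkb1 was highest in rDC, at 218 to 303 CPM, and at or below 128 in every mDC, MSM and SSM library. The macrophage and dendritic cell tables were normalized separately, so these levels across tables are side by side and were not tested.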

How the data were processed

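Libraries were made with a TruSeq Stranded mRNA kit, per the labels' protocols, from sorted cells of 16 groups with 3 libraries each. The authors deposited expected counts per gene as whole numbers, from RSEM 1.3.0 on build GRCm38 with STAR alignment, per the submitters' processing notes, which also name DESeq2 1.38.3. They also deposited TPM values from RSEM, used here for levels of different genes in dendritic cells. The deposited macrophage TPM table holds whole numbers, treated as a score, and was not used here. Among the dendritic cell columns the LN libraries are named WT, and were assigned to LN because the other columns are named for tumor. The macrophage columns carry the LN and TDLN labels themselves. The members and the lists were chosen with earlier results of these data known.

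Genes that passed filterByExpr were tested with the quasi-likelihood test of edgeR 4.0.16 (R 4.3.3, limma 3.58.1) after TMM scaling, in 1 model per cell type (12 libraries, 4 groups) or, between cell types, per table (24 libraries, 8 groups). Adjusted p-values are Benjamini-Hochberg over all genes tested, with a limit of 0.05. The models held 17002 genes for MSM, 16886 for SSM, 12519 for mDC, 14023 for rDC, and 14548 for both dendritic cells. Of 29 comparisons, the 2 of the cisplatin effect between mDC and rDC were added after the data were seen. CPM values of members are on the scale of the model they belong to. Levels and sums of marker and digestion genes are on the scale of the model of both cell types of a table. This holds also beside tests within 1 cell type, whose marker calls come from that cell type's own model. Such sums are therefore not on the same scale as the member values and calls given with them. Every member is accounted for by role in the comparison of mDC and rDC over 4 conditions. In the cisplatin comparisons, values in every library are given mainly for called members with a mean of at least 4 CPM and no overlap. These were up to 6 per direction by size of change, with subunits and inhibitors added, though not all of them. The node comparisons mostly give log2 changes of part of the called members. A member not named in a comparison may still have been called there. Other pathway genes came from a list of 36, with up to 4 named per comparison. Alternatives were DESeq2 1.42.0, its size factors in edgeR, no filter, a replicate block, libraries left out in turn, the 4 crossed libraries left out, and the 6 deepest dendritic cell libraries thinned at random to about the depth of the others; a model of both cell types and a fit without the filter but with its scaling were chosen after seeing the data. The script was tested on simulated data. Replicate numbers were not taken as pairs.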

Additional observations from a re-analysis of the deposited data

Results flagged for a closer look

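The effect of cisplatin differed between nodes or between dendritic cell types for 42 combinations of member and comparison, by a test of the difference itself (edgeR, adjusted p under 0.05). The comparisons share libraries, so they are not independent of each other, and no cause was tested.

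In mDC the log2 change after cisplatin was lower in TDLN than in LN for Nfkb1 (-0.41), Nfkbid (-0.51), Nfkbiz (-0.22), Tnfaip2 (-0.54), Map3k8 (-0.45), Cxcl1 (-0.51), Cxcl2 (-0.60), Ccl4 (-1.01) and Icam1 (-0.27), and higher for Traf1 (0.22). Nfkb1 rose in both nodes, and its call was lost without LN CIS 1 or LN PBS 1. The calls of Nfkbiz and Map3k8 were each lost without 1 library, TDLN PBS 2 and LN PBS 1. Those of Cxcl2, Ccl4 and Traf1 were lost in 5, 9 and 9 of the fits that left out a library. Of the 12 digestion genes 11 had a lower effect in TDLN in the same test, and their part was not tested.

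In rDC the change was higher in TDLN for Nfkbia (0.86), Nfkbie (0.58), Nfkbiz (1.17), Tnfaip2 (0.89), Il12b (1.42), Ptgs2 (1.84) and Icam1 (0.50), the last lost in 5 fits that left out a library. Here 5 digestion genes had a higher effect in TDLN and none a lower one.

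In TDLN the change was lower in mDC than in rDC for Rel (-1.06), Nfkbia (-1.0), Nfkbid (-0.89), Nfkbie (-0.34), Nfkbiz (-1.41), Tnfaip2 (-0.91), Tnfaip3 (-0.74), Birc3 (-0.35), Cflar (-0.52), Map3k8 (-0.81), Tnf (-1.35), Il6 (-1.68), Cxcl2 (-2.33), Ptgs2 (-1.31) and Icam1 (-0.68). Without rDC TDLN CIS 2 the calls of Nfkbie and Birc3 were lost, and that of Il6 was lost in 4 fits.

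In LN the change was higher in mDC than in rDC for Nfkb1 (0.87), Relb (0.37), Nfkbie (0.55), Tnfaip2 (0.74), Il12b (1.89), Ccl4 (1.45), Ptgs2 (0.84) and Icam1 (0.32), and lower for Tnfaip3 (-0.43) and Cxcl1 (-2.17). Relb lost its call in 4 fits, Icam1 without rDC LN CIS 2, and Cxcl1, which is near 0 in rDC, without rDC LN CIS 2 or rDC LN CIS 3.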

How the results depend on the processing

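Counts of called members moved most without the 4 crossed libraries: 24 for cisplatin in MSM TDLN, 28 in MSM LN, 26 in SSM TDLN and 24 in SSM LN; 24, 29, 29 and 28 between nodes in MSM PBS, MSM CIS, SSM PBS and SSM CIS; and 26, 27, 26 and 29 for MSM against SSM in LN PBS, LN CIS, TDLN PBS and TDLN CIS. All 92 called macrophage values kept their call there, in fits whose left-out libraries were picked by their values in these data. With DESeq2 the count was 10 for cisplatin in SSM LN and 8 in rDC TDLN. The replicate block gave 5 for cisplatin in MSM TDLN, 1 in SSM LN and 3 between nodes in SSM CIS, and moved no other count by over 1.5 times. In no comparison were the correlations of same-numbered libraries all over 0.1; between SSM LN CIS and SSM TDLN PBS, which were not compared, they were 0.131 to 0.395. With both cell types in 1 model the counts were 9 for cisplatin in rDC TDLN, 16 between nodes in rDC PBS and 11 for the node difference in rDC.

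Without the filter on low counts, which also shifted the scaling of dendritic cells by up to 0.50 in log2 over all genes, the counts were 1 for cisplatin in SSM LN, 2 between nodes in SSM CIS, 26 for cisplatin in mDC TDLN (0 higher), 22 for the node difference in mDC, 14 for cisplatin in rDC LN, 17 between nodes in rDC PBS, 14 for the node difference in rDC and 24 for the difference of effects in LN. With the filtered genes' scaling they were 2 for cisplatin in SSM LN, 3 and 2 between nodes in SSM PBS and CIS, and 10 for cisplatin in rDC TDLN. Values that reversed without the filter were Bcl3 -0.03 (cisplatin in mDC TDLN); between nodes in mDC PBS Rela 0.16, Relb 0.05, Nfkbia 0.08, Nfkbib 0.06, Nfkbid 0.16, Bcl3 0.02, Traf1 0.13, Tnf 0.05, Icam1 0.23 and Sod2 0.02; Traf1 -0.11 (node difference in mDC); Tnfaip3 -0.08 (cisplatin in rDC LN) and 0.08 (difference of effects in LN); and Bcl3 -0.10 (mDC against rDC in LN PBS). Icam1 was 0.03 between nodes in mDC PBS with both types in 1 model, and Bcl3 in mDC against rDC TDLN CIS ranged from -0.34 to 0.01 with libraries left out in turn, 0.01 being without rDC TDLN CIS 2. The cause was not tested.

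Leaving out libraries in turn, the counts for cisplatin ranged from 3 to 15 in MSM TDLN, 9 to 21 in MSM LN, 1 to 9 in SSM TDLN, 1 to 11 in SSM LN, 14 to 17 in mDC TDLN, 11 to 12 in mDC LN, 2 to 8 in rDC TDLN and 4 to 7 in rDC LN. Between nodes they ranged from 5 to 13 in MSM PBS, 9 to 20 in MSM CIS, 3 to 12 in SSM PBS, 0 to 13 in SSM CIS, 12 to 18 in mDC PBS, 14 to 17 in mDC CIS, 6 to 10 in rDC PBS and 10 to 15 in rDC CIS. They were 7 to 10 for MSM against SSM in TDLN PBS and 8 to 9 in LN CIS, 7 to 12 and 6 to 10 for the node differences in mDC and rDC, and 14 to 16 and 7 to 11 for the differences of effects in TDLN and LN. In dendritic cells thinning left 279 of 293 called values past the limit, all in the same direction. Members near or under 4 CPM (Il6, Il23a, Cxcl3, Ccl3 in mDC, and Cxcl1 in rDC) are limited by depth. So is Cxcl2 in rDC TDLN PBS, at 4.25, 1.51 and 2.95 CPM, which enters its difference of effects in TDLN (-2.33).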
